A study of Mus musculus with 18 samples.

Results

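The DNA replication genes described here are 37 genes that code for the machinery copying the genome in S phase, chosen by their symbols from the gene rows of the deposited files. All 37 were found among the 22609 genes listed. By role they comprised 10 genes of origin licensing and the replicative helicase, 5 of helicase activation, 6 of priming and polymerases, 7 of the sliding clamp, its loader, strand maturation and single-strand binding, 4 of nucleotide supply, 4 that act on chromatin behind the fork, and the transcription factor E2f1. The RNA came from wild-type mice of the inbred strain C57BL/6J, from their heart, kidney or liver. At 4 weeks old they were put for 21 days on a ketogenic diet made of 90% fat, 9.7% protein and 0.3% carbohydrate, or kept on standard chow. Each organ gave 3 ketogenic and 3 chow libraries, which the labels call biological replicates, so that 18 libraries fell into 6 groups. Sex and litter are not stated in the labels. The series compares the diets within each organ, and its title concerns p53-dependent cell senescence.

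Before S phase, the origin recognition complex with Cdc6 and Cdt1 loads the ring of Mcm2 to Mcm7 onto DNA, and Mcm10 and the GINS complex turn that ring into a running helicase. Polymerase alpha with primase starts each strand, polymerases delta and epsilon extend it on the Pcna clamp, and Fen1 and Lig1 join the lagging strand pieces. Most of these genes are transcribed in proliferating cells under E2F factors and are low in resting cells.

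Libraries held 16135276 to 23835383 counts, and the members lay low within them, from 0 to 1008 counts in a library except for Mcm10 in liver. In heart and in liver, the ketogenic libraries 1 and 2 stood closer together than any other pair, near the level of counting noise. The median chi-square over genes was 0.664 in heart and 0.698 in liver, against 0.455 under counting alone and 1.23 to 4.20 for the remaining 16 pairs within groups. Each such pair was therefore counted as 1 sample, so n = 2 for ketogenic heart and liver and n = 3 for every other group. The organ labels matched their markers. Cardiomyocyte markers summed to at least 52860 CPM (counts scaled to the library's size) in hearts and at most 13.95 CPM elsewhere, and hepatocyte markers to at least 69720 CPM in livers and at most 206.3 CPM elsewhere. Kidney tubule markers summed to at least 27470 CPM in kidneys and at most 17.44 CPM elsewhere. Chow heart replicate 3 stood apart, with 12090 CPM of atrial markers where the other hearts had at most 132.3 CPM.

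On the ketogenic diet the replication genes that passed the test were lower in heart and kidney, and in liver all but Mcm10 and Gins4 were lower. In heart 9 of the 36 members tested fell and none rose (edgeR's quasi-likelihood test, adjusted p under 0.05), which is 25% of them against 5.80% of all 13609 genes tested that fell and 6.25% that rose. In kidney 22 of 36 fell and none rose, which is 61.1%, against 5.45% of all genes that fell and 3.58% that rose. In liver 19 of 36 fell, or 52.8%, and 2 rose, against 17.5% of all genes that fell and 19.2% that rose. In heart and kidney no member was higher at an unadjusted p under 0.05, and DESeq2 and limma-voom called 0 members higher as well. Orc1 was under the filter on low counts in each single organ and was not tested there. Counting members below zero whether or not they passed, 32, 35 and 31 of 36 had a negative log2 fold change in heart, kidney and liver. Their median log2 fold change (ketogenic minus chow) was -0.65 in heart, -0.67 in kidney and -1.13 in liver, where the median over all genes tested was -0.03, 0.00 and 0.01. The 3 ketogenic libraries lay below all 3 chow libraries for 20 members in heart, 31 in kidney and 25 in liver, out of 37. Over all genes tested this held for 22.7%, 16.5% and 27.9%.

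**Figure D1:**
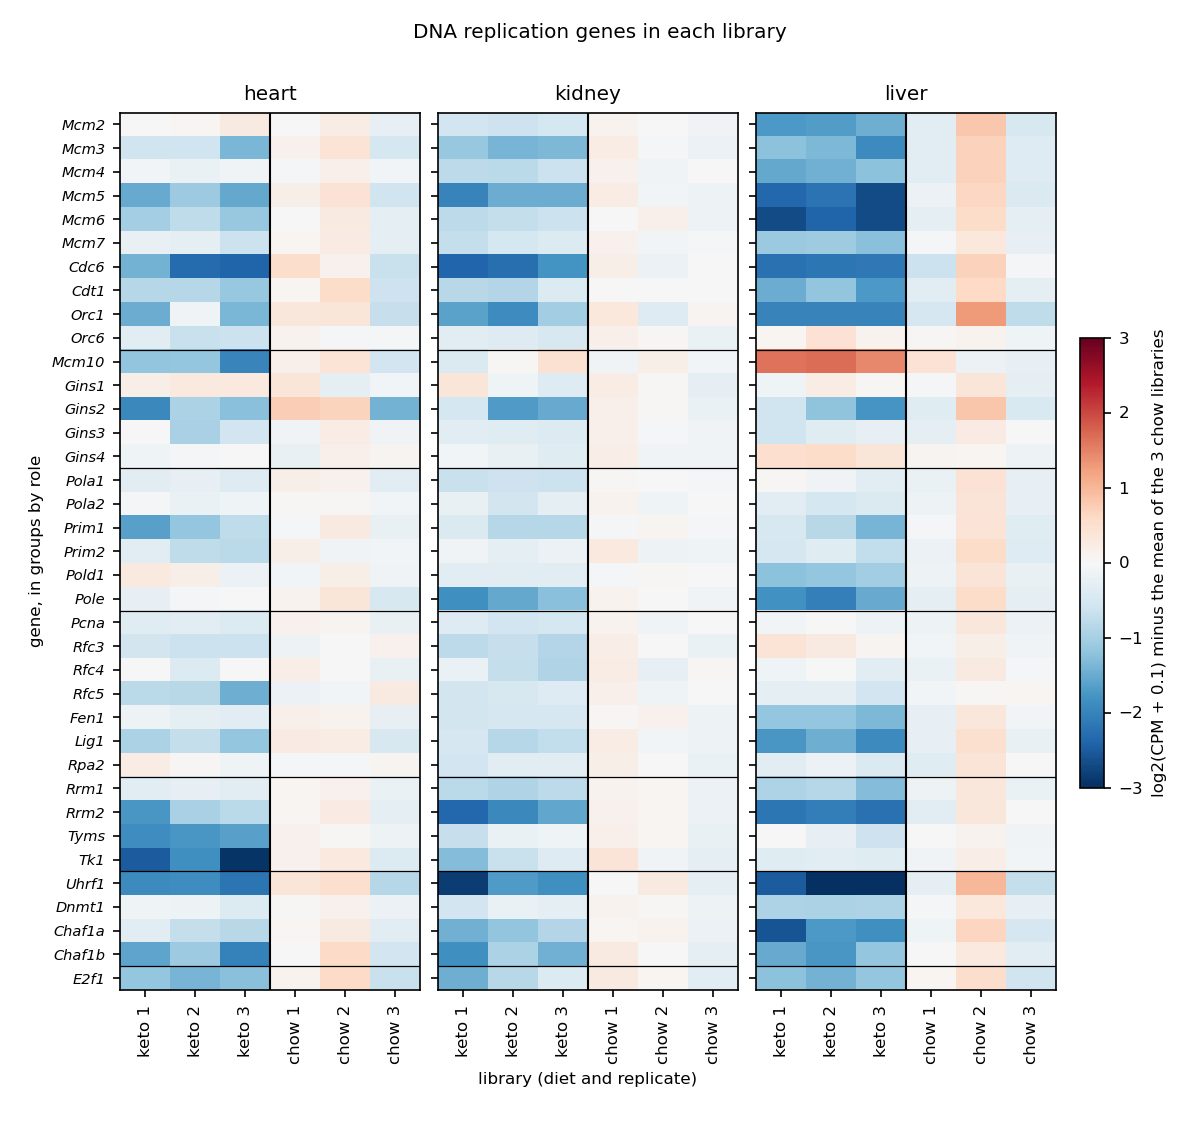
Level of each of the 37 genes (rows, grouped by role) in each library (columns, ketogenic left of chow), as log2(CPM + 0.1) minus the mean of the 3 chow libraries of the organ. Blue covers most of the ketogenic columns, and Mcm10 in liver is the darkest red row; 31 members in kidney had no overlap between the diets.

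The count in heart depended on single libraries. It was 0 without ketogenic replicate 3, when the near-identical pair was the only ketogenic sample left, 2 without chow replicate 1 or chow replicate 2, and 24 without chow replicate 3, the library with atrial RNA. In kidney it was 12 without chow replicate 1 and 14 without ketogenic replicate 2 or chow replicate 2, and in liver it was 12 without ketogenic replicate 3. Of the members called, 0 of 9 in heart, 12 of 22 in kidney and 13 of 21 in liver passed in every fit that left out 1 library. The number of all genes that fell moved too. In heart it was 789 in the main fit, 309 without chow replicate 1, 201 without chow replicate 2 and 1890 without chow replicate 3. In kidney it was 791 in the main fit, 271 without chow replicate 1, 364 without ketogenic replicate 2 and 465 without chow replicate 2. These swings are thus not particular to the members. The chow libraries were also uneven: chow heart replicate 3 was the lowest of its group for 30 of 37 members, chow kidney replicate 1 the highest for 30, and chow liver replicate 2 the highest for 34. Summed over the members without Mcm10, the level was 272, 271 and 248 CPM in the ketogenic hearts against 372, 403 and 301 CPM in the chow hearts. The kidneys had 323, 334 and 349 CPM on the ketogenic diet and 586, 535 and 496 CPM on chow. In the livers these sums were 208, 212 and 189 CPM on the ketogenic diet against 331, 503 and 317 CPM on chow. No organ's diets overlapped in this sum. With Mcm10 included, the livers had 320, 328 and 287 CPM on the ketogenic diet against 379, 535 and 347 CPM on chow, which stayed apart by a smaller gap. These are bulk tissues, so fewer cells of a cycling type and less RNA per cell cannot be told apart.

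Mcm5, Mcm6, Cdc6, Rrm2, Lig1 and Uhrf1 fell in each of the 3 organs, and 11 more members fell in 2 organs. These 11 were Mcm4, Mcm7, Cdt1, Rrm1, Tk1, Prim1, Pole, Rfc5, Fen1, Chaf1a and Chaf1b. Another 10 fell in 1 organ, and 10 were called lower in none, among them Orc6, Rpa2, Pola2, Prim2 and Rfc4, besides the untested Orc1. The number of organs in which a gene fell was not counted over all genes, so these counts only describe the members.

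**Figure D2:**
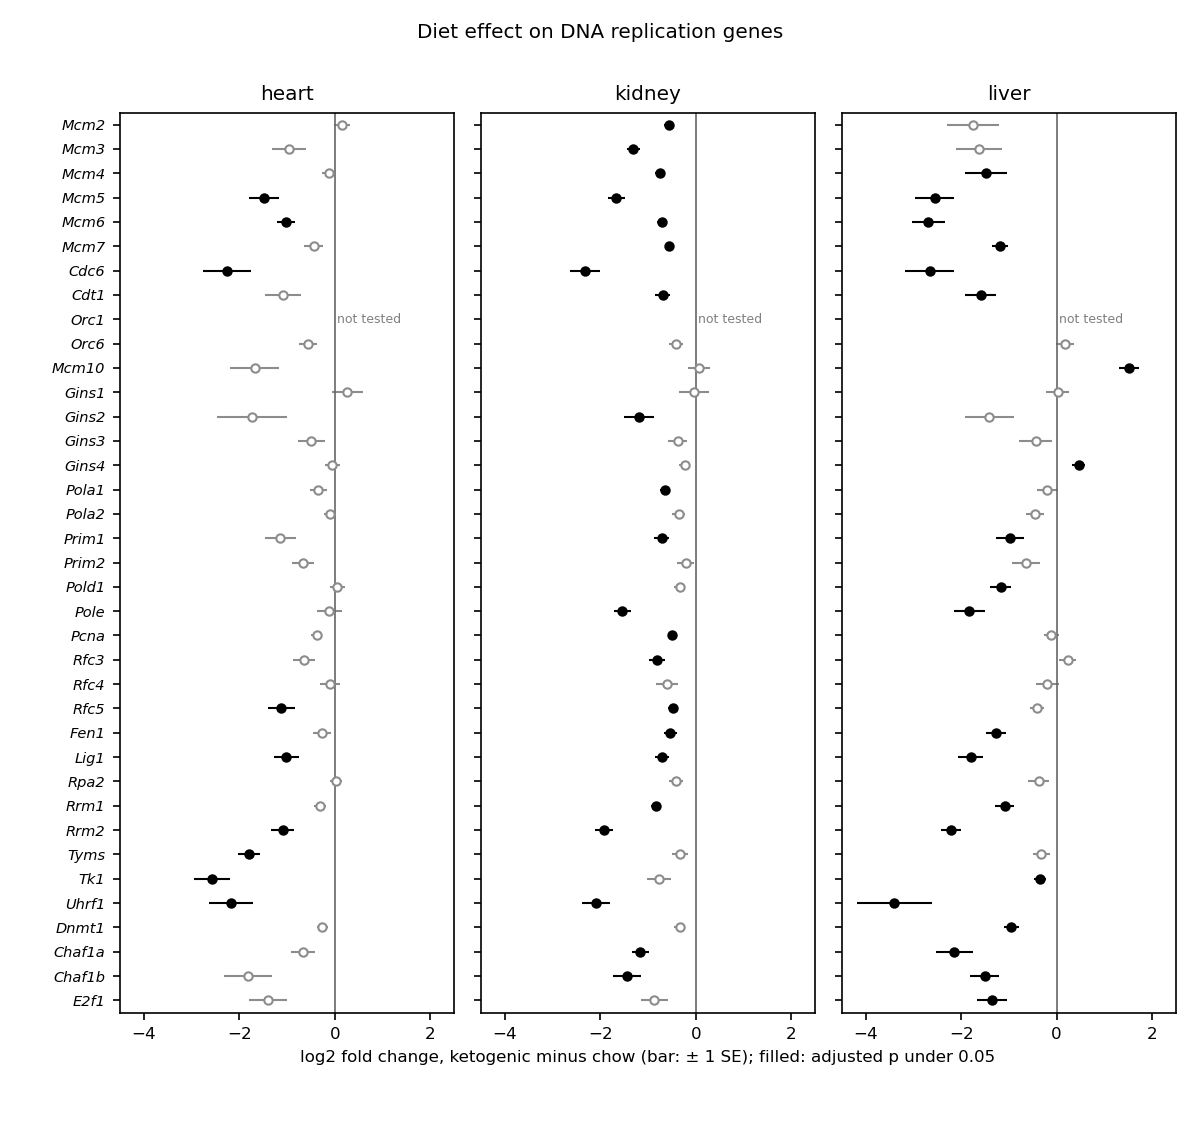
Log2 fold change (ketogenic minus chow) of each gene in heart, kidney and liver, with bars of ± 1 SE and filled points for an adjusted p under 0.05. Filled points lie left of zero, 9 in heart, 22 in kidney and 19 in liver, apart from Mcm10 and Gins4 in liver.

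Among the licensing and helicase genes, 3 of 9 tested fell in heart, 8 in kidney and 6 in liver. Over all genes tested, 5.80%, 5.45% and 17.5% fell in these organs. The median log2 fold changes of the licensing and helicase genes were -0.96, -0.71 and -1.63. Mcm5 (chromosome 8, 77633427 to 77652338, plus strand, mm9), a subunit of the helicase ring, had 3.79, 5.13 and 3.71 CPM in the ketogenic hearts and 12.5, 14.8 and 7.19 CPM in the chow hearts. The ketogenic kidneys had 4.44, 6.47 and 6.45 CPM of it, against 21.5, 17.2 and 16.4 CPM in the chow kidneys. The ketogenic livers had 2.69, 2.95 and 2.103 CPM, against 12.4, 21.7 and 10.3 CPM in the chow livers. Every ketogenic library lay below every chow library of its organ. The log2 fold change was -1.48 in heart (SE 0.32, adjusted p = 0.0363), -1.66 in kidney (SE 0.17, adjusted p = 0.00161) and -2.55 in liver (SE 0.41, adjusted p = 0.00651).

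Mcm6 (chromosome 1, 130228168 to 130256233, minus strand, mm9), its partner in the ring, was at 8.43, 10.1 and 7.74 CPM in ketogenic hearts and 17.4, 20.7 and 13.9 CPM in chow hearts. It was at 21.5, 22.5 and 23.5 CPM in ketogenic kidneys against 36.98, 40.9 and 33.0 CPM in chow kidneys. It was at 3.99, 4.89 and 3.99 CPM in ketogenic livers against 21.6, 38.7 and 21.8 CPM in chow livers. The diets did not overlap in any organ, and chow liver replicate 2 stood above the other livers. Its log2 fold change was -1.02 in heart (adjusted p = 0.019), -0.71 in kidney (adjusted p = 0.00339) and -2.69 in liver (adjusted p = 0.00315). Cdc6 (chromosome 11, 98769203 to 98785256, plus strand, mm9), which helps load the ring, was a rare transcript with 5 to 61 counts in a library. Ketogenic libraries had 0.737, 0.354 and 0.325 CPM of Cdc6 in heart, 0.360, 0.392 and 0.586 CPM in kidney and 0.249, 0.263 and 0.270 CPM in liver. On chow they had 3.11, 2.36 and 1.31 CPM in heart, 2.60, 1.99 and 2.27 CPM in kidney and 0.952, 2.56 and 1.49 CPM in liver. The ranges were apart in each organ, and the ketogenic level was 4.78-fold lower in heart (adjusted p = 0.032), 5.01-fold lower in kidney (adjusted p = 0.00375) and 6.31-fold lower in liver (adjusted p = 0.00229).

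Of the other helicase subunits, Mcm2 had 15.2, 15.7 and 18.3 CPM in the ketogenic hearts and 15.3, 17.7 and 12.7 CPM in the chow hearts, so the diets overlapped (log2 fold change 0.15, SE 0.16, adjusted p = 0.581). In kidney it had 15.6, 14.8 and 16.1 CPM on the ketogenic diet against 24.96, 22.8 and 21.5 CPM on chow, without overlap (-0.57, SE 0.09, adjusted p = 0.00777). The livers had 3.29, 3.42 and 3.99 CPM on the ketogenic diet and 8.84, 19.7 and 7.90 CPM on chow. The liver groups did not overlap, but chow replicate 2 lay far above the other chow libraries and the log2 fold change of -1.75 did not pass (SE 0.54, adjusted p = 0.0694). Mcm3, another ring subunit, had 7.15, 6.02 and 6.23 CPM in ketogenic kidneys against 18.5, 15.4 and 14.1 CPM in chow kidneys, and it was 2.47-fold lower there (adjusted p = 0.00195). Its log2 fold change of -0.96 in heart and -1.63 in liver did not pass (adjusted p = 0.146 and 0.0626). Mcm7 had the highest mean level per length of the licensing genes. It had 10.3, 10.7 and 9.33 CPM in ketogenic livers against 21.5, 27.7 and 18.8 CPM in chow livers. It had 17.9, 20.1 and 22.1 CPM in ketogenic kidneys against 32.1, 27.9 and 28.1 CPM in chow kidneys. Mcm7 thus fell in liver (log2 fold change -1.19, adjusted p = 0.000429) and kidney (-0.55, adjusted p = 0.0146). In heart it had 11.9, 11.3 and 8.91 CPM on the ketogenic diet and 14.5, 16.5 and 11.3 CPM on chow, with overlap between the diets (-0.44, adjusted p = 0.179).

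Mcm4 fell by 0.75 in kidney (log2 fold change -0.75, adjusted p = 0.00539) and had -1.48 in liver (adjusted p = 0.0499), close to the threshold, against -0.13 in heart (adjusted p = 0.536). Cdt1, the licensing factor that brings the ring to the origin, fell in kidney (log2 fold change -0.69, adjusted p = 0.028) and liver (-1.59, adjusted p = 0.00705). In heart its diets did not overlap, but -1.08 did not pass (adjusted p = 0.108). Of the 2 origin recognition subunits, Orc6 had 3.59, 4.68 and 3.72 CPM in ketogenic livers and 3.54, 3.73 and 3.16 CPM in chow livers, which overlapped (log2 fold change 0.18, adjusted p = 0.493). It had 4.21, 3.30 and 3.32 CPM in ketogenic hearts against 5.68, 5.10 and 5.06 CPM in chow hearts, and 7.99, 7.65 and 7.25 CPM in ketogenic kidneys against 11.2, 10.4 and 8.82 CPM in chow kidneys. Those groups did not overlap, yet neither difference passed (-0.56 in heart and -0.41 in kidney, adjusted p = 0.0993 and 0.098). Orc1 had no counts in the 3 ketogenic livers, against 4, 21 and 3 counts in the chow livers, which puts it at least 7.90-fold lower on the ketogenic diet when 3 counts over the group are taken as the floor. Chow liver replicate 2 held 21 of those 28 counts, and without it the bound was at least 3.04-fold. Summed counts of Orc1 were 7 in ketogenic hearts against 20 in chow hearts, and 11 in ketogenic kidneys against 42 in chow kidneys. With no filter, Orc1 passed in liver (adjusted p = 0.0122), and it did so with all organs in 1 model (adjusted p = 0.00587), but not in heart or kidney under either setting (adjusted p = 0.0628 to 0.383). In that model its diet effect did not differ between heart and liver past the threshold (adjusted p = 0.0859).

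The promoters of 3 licensing genes that fell in every organ are shown with that of Mcm10, the member that moved the other way in liver. Each is the 250 bases before the RefSeq start site on GRCm38.p6 (mm10), read 5′ to 3′ along the gene's strand, with the E2F letters in capitals. The letters searched were TTT, then 2 bases each C or G, then CGC, on both strands, and overlapping matches run together. Mcm5 lies at chr8:75109259-75109508 (plus strand), Mcm6 at chr1:128359706-128359955 (minus strand), Cdc6 at chr11:98907901-98908150 (plus strand) and Mcm10 at chr2:5012792-5013041 (minus strand). Bases after the start matched a GENCODE transcript in this direction for Cdc6 and Mcm10. For Mcm5 and Mcm6 they matched in neither direction, so their direction rests on the RefSeq strand alone.
Mcm5: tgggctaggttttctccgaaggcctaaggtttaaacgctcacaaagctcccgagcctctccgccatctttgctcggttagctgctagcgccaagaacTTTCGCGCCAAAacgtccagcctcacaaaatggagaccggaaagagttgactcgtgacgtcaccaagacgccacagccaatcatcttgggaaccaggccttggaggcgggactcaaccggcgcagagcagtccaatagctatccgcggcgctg
Mcm6: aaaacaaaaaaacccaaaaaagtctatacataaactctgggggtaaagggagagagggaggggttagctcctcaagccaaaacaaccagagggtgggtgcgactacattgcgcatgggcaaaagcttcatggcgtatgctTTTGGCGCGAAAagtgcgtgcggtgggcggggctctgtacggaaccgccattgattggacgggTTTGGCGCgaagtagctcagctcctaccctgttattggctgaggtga
Cdc6: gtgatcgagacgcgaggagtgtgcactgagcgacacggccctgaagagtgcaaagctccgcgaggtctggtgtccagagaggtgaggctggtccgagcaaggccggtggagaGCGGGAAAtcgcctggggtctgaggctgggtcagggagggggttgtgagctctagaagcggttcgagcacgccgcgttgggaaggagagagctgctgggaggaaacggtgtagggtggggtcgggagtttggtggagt
Mcm10: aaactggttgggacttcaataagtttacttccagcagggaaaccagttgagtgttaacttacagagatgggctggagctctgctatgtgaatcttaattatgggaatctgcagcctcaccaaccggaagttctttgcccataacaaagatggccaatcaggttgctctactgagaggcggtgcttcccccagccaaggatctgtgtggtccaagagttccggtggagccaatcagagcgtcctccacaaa
Over windows from 250 bases before to 50 bases after the start, E2F letters were present for 14 of the 31 members that matched a RefSeq promoter by symbol, or 45.2%. They were present for 2.61% of 27025 genes and for 3.29% of 17491 protein-coding genes with a promoter in the same table. The 14 were Cdc6, Cdt1, Dnmt1, Gins3, Lig1, Mcm3, Mcm5, Mcm6, Mcm7, Orc1, Pola1, Pold1, Rfc3 and Uhrf1. The CCAAT box (letters CCAAT, both strands) was present for 19 of 31 members, or 61.3%, against 41.1% of all genes. The CHR letters TTTGAA were present for 4 of 31, or 12.9%, against 20.2% of all genes. The Mcm10 window had 3 CCAAT matches and no E2F letters. Members without these letters, such as Rrm2, also fell, and members with them, such as Gins3, did not pass in any organ.

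Among the helicase activation genes no member passed in heart, 1 of 5 fell in kidney and 2 of 5 rose in liver. Over all genes tested, 5.45% fell in kidney and 19.2% rose in liver. With so few members these counts only describe them. Mcm10 (chromosome 2, 4911770 to 4933837, minus strand, mm9), which joins the helicase to polymerase alpha, had 112, 116 and 97.5 CPM in ketogenic livers and 48.5, 31.7 and 30.5 CPM in chow livers. All ketogenic livers were above all chow livers, with 1809 to 2252 counts against 676 to 1070, and the log2 fold change was 1.52 (SE 0.21, adjusted p = 0.00219). In heart the same gene was at 0.527, 0.531 and 0.260 CPM on the ketogenic diet and at 1.47, 1.79 and 0.857 CPM on chow, without overlap in the other direction (log2 fold change -1.68, SE 0.51, adjusted p = 0.0765). In kidney it had 4.32, 6.08 and 8.10 CPM on the ketogenic diet against 5.53, 6.65 and 5.63 CPM on chow, with overlap (0.06, adjusted p = 0.897). Its level in liver was thus the highest of the 3 organs on both diets. Per length it averaged 21.9 ± 5.1 TPM (counts scaled to exon length and library size) in chow livers, 3.39 ± 0.53 TPM in chow kidneys and 0.879 ± 0.298 TPM in chow hearts (SD, n = 3 each). No exon of another gene overlapped its exons in the files.

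Gins4, a subunit of the GINS complex, had 15.7, 16.3 and 14.2 CPM in ketogenic livers and 11.7, 11.5 and 9.98 CPM in chow livers. The groups did not overlap, and the rise was 1.37-fold (log2 fold change 0.46, SE 0.13, adjusted p = 0.016). It had 12.7, 13.6 and 13.8 CPM in ketogenic hearts against 11.8, 15.3 and 14.8 CPM in chow hearts, and 18.7, 17.1 and 15.5 CPM in ketogenic kidneys against 22.9, 18.6 and 18.6 CPM in chow kidneys. The diets overlapped in both organs (-0.05 and -0.23, adjusted p = 0.837 and 0.254). Gins1 had no difference that passed: 1.74, 1.89 and 1.89 CPM in ketogenic hearts against 1.97, 1.23 and 1.43 CPM in chow hearts, with a log2 fold change of 0.26 (adjusted p = 0.625). Ketogenic livers had 2.89, 3.74 and 3.29 CPM of Gins1 and chow livers 3.04, 4.15 and 2.57 CPM, which overlapped (0.02, adjusted p = 0.963). In kidney its log2 fold change was -0.04 (adjusted p = 0.955). Gins2 fell in kidney, 2.28-fold (adjusted p = 0.0475). In heart and liver it had log2 fold changes of -1.73 and -1.41 that did not pass (adjusted p = 0.169 and 0.0575), and Gins3 passed nowhere, with -0.49, -0.38 and -0.44 in heart, kidney and liver. The 3 members with the least likeness to the others over the 18 libraries were Gins4, Mcm10 and Gins1. Pearson's r of each with the mean of the other members, after each organ's mean was removed from log2 CPM, was -0.23, -0.08 and -0.04. It was 0.47 to 0.98 for the other 34, with Mcm5 the highest. These libraries share diet groups and depth, so r is only a description.

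**Figure D3:**
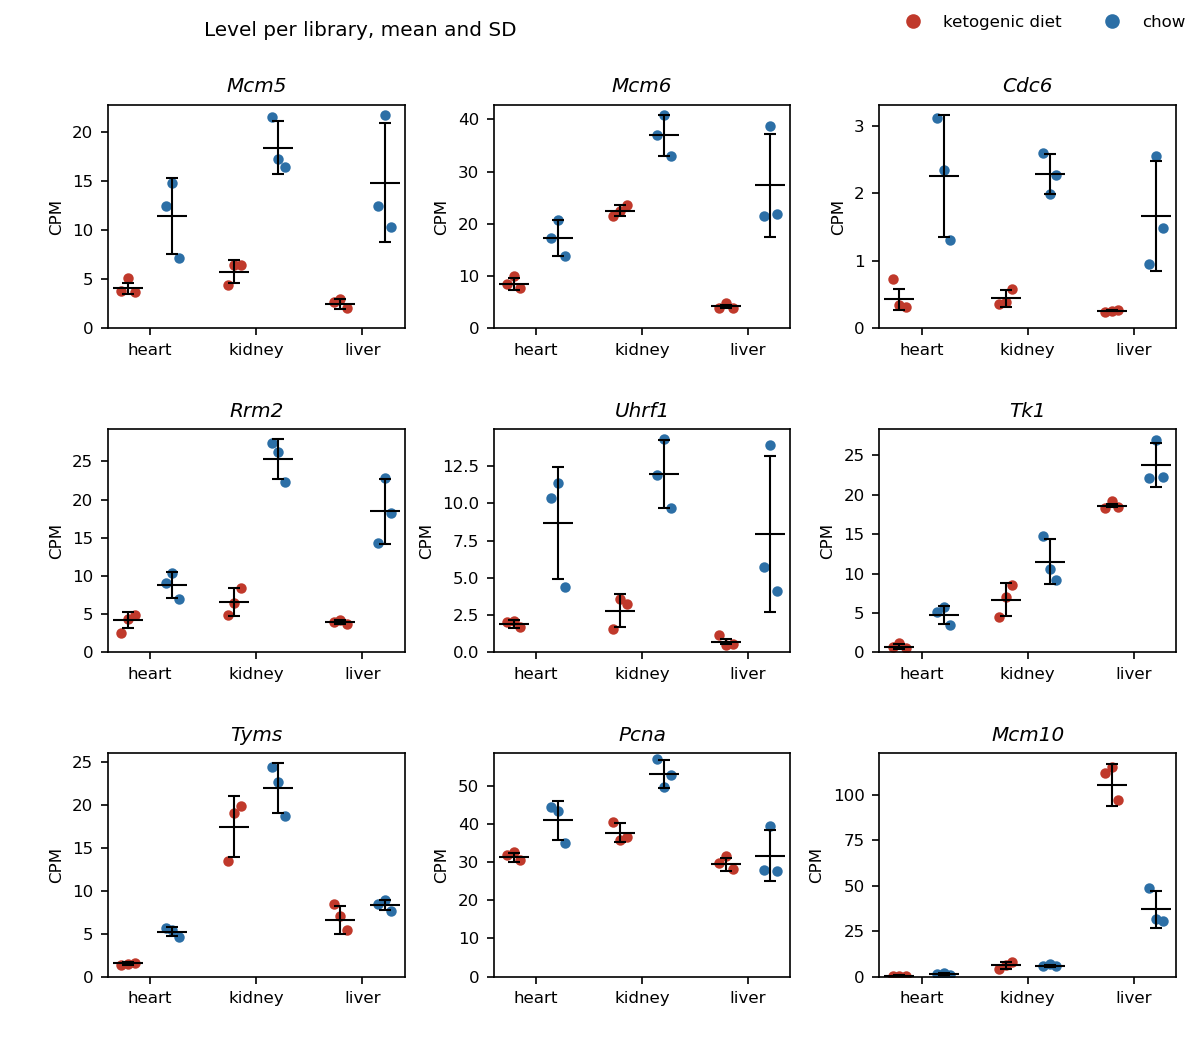
CPM per library of 9 replication genes in heart, kidney and liver, with ketogenic libraries (red) left of chow libraries (blue) and black marks for mean ± SD, in which the near-identical ketogenic libraries 1 and 2 (heart, liver) count as 1 sample. Mcm10 is the panel where the ketogenic livers lie on top, at 97.5 to 116 CPM against 30.5 to 48.5 CPM on chow.

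Of the 6 priming and polymerase genes, none passed in heart, and 3 fell in kidney and 3 in liver. Over all genes tested, 5.45% fell in kidney and 17.5% in liver. Pole, the catalytic subunit of the leading strand polymerase epsilon, had 2.88, 3.60 and 4.37 CPM in ketogenic kidneys against 11.4, 10.5 and 9.90 CPM in chow kidneys. In liver it had 3.34, 2.84 and 4.15 CPM on the ketogenic diet against 10.1, 17.8 and 9.89 CPM on chow. Both organs showed no overlap, with log2 fold changes of -1.54 in kidney (SE 0.18, adjusted p = 0.00213) and -1.83 in liver (SE 0.33, adjusted p = 0.00546). In heart it had 5.58, 6.54 and 6.63 CPM on the ketogenic diet and 7.26, 8.69 and 4.74 CPM on chow, which overlapped (-0.12, adjusted p = 0.79). Pold1, the catalytic subunit of polymerase delta, had 3.44, 3.63 and 3.94 CPM in ketogenic livers against 7.35, 10.8 and 6.996 CPM in chow livers. It was 2.26-fold lower there (log2 fold change -1.17, adjusted p = 0.0018). The hearts overlapped, at 19.1, 17.5 and 13.8 CPM on the ketogenic diet and 14.8, 17.5 and 14.5 CPM on chow (0.05, adjusted p = 0.851), and the kidney value of -0.34 did not pass (adjusted p = 0.0794).

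Pola1, the catalytic subunit of polymerase alpha, fell in kidney (log2 fold change -0.65, adjusted p = 0.00642), with -0.35 in heart and -0.20 in liver that did not pass (adjusted p = 0.239 and 0.51). Pola2, its regulatory subunit and the member of this role with the highest mean TPM, had 11.6, 10.3 and 10.9 CPM in ketogenic hearts and 12.2, 12.2 and 11.1 CPM in chow hearts. It had 10.0, 8.04 and 9.54 CPM in ketogenic kidneys against 12.6, 10.8 and 12.0 CPM in chow kidneys, and 7.68, 6.63 and 7.06 CPM in ketogenic livers against 8.71, 12.6 and 8.12 CPM in chow livers. Kidney and liver showed no overlap and heart did, and none of the values passed (-0.11, -0.36 and -0.46 in heart, kidney and liver, adjusted p = 0.592, 0.124 and 0.0845). The primase catalytic subunit Prim1 fell in kidney (-0.71, adjusted p = 0.0258) and liver (-0.98, adjusted p = 0.0231) and had -1.14 in heart (adjusted p = 0.0629). Prim2, the large primase subunit, passed in no organ (-0.67, -0.21 and -0.64 in heart, kidney and liver).

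Of the 7 genes of the clamp, loader, maturation and single-strand binding, 2 fell in heart, 5 in kidney and 2 in liver. The shares of all genes that fell there were 5.80%, 5.45% and 17.5%. With so few members the counts only describe the role. Pcna, the sliding clamp, had the highest mean TPM of all members. It had 31.7, 32.5 and 30.4 CPM in ketogenic hearts against 44.5, 43.3 and 34.9 CPM in chow hearts. In kidney it had 40.6, 35.8 and 36.7 CPM on the ketogenic diet and 56.9, 49.6 and 52.8 CPM on chow. In liver it had 29.7, 31.5 and 28.1 CPM on the ketogenic diet and 27.9, 39.4 and 27.7 CPM on chow. The diets were apart in heart and kidney and overlapped in liver. Pcna fell in kidney (log2 fold change -0.49, adjusted p = 0.00902), and its -0.38 in heart and -0.11 in liver did not pass (adjusted p = 0.0812 and 0.635). Lig1, the ligase that seals lagging strand pieces, had 2.74, 3.37 and 2.43 CPM in ketogenic livers against 7.98, 13.1 and 7.99 CPM in chow livers. No liver of one diet reached the range of the other, and Lig1 was 3.48-fold lower in liver (adjusted p = 0.000676), 2.03-fold lower in heart (adjusted p = 0.0484) and 1.64-fold lower in kidney (adjusted p = 0.025).

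Fen1, the nuclease that trims the flaps of those pieces, had 3.24, 3.26 and 2.86 CPM in ketogenic livers and 6.17, 9.35 and 6.996 CPM in chow livers. The livers did not overlap (log2 fold change -1.28, adjusted p = 0.000941). It also fell in kidney (-0.53, adjusted p = 0.0473), and -0.27 in heart did not pass (adjusted p = 0.355). Rfc3, a subunit of the complex that loads the clamp, had 7.23, 6.53 and 5.71 CPM in ketogenic livers against 5.12, 6.16 and 5.01 CPM in chow livers. It had 4.38, 4.64 and 4.10 CPM in ketogenic kidneys against 8.70, 7.70 and 6.60 CPM in chow kidneys. The kidneys were apart by diet and the livers overlapped. Rfc3 fell in kidney (-0.81, adjusted p = 0.0188), while liver had 0.23 (adjusted p = 0.34) and heart -0.64 (adjusted p = 0.11). Rfc5, another loader subunit, fell in heart (-1.12, adjusted p = 0.0418) and kidney (-0.48, adjusted p = 0.0324) and had -0.41 in liver (adjusted p = 0.0508). Rpa2, a subunit of the single-strand binding protein, had 14.2, 12.6 and 11.2 CPM in ketogenic hearts and 11.8, 11.9 and 12.9 CPM in chow hearts, with overlap (0.02, adjusted p = 0.937). Its values in kidney and liver, -0.42 and -0.38, and those of the loader subunit Rfc4, -0.11, -0.60 and -0.20 in heart, kidney and liver, did not pass.

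Nucleotide supply included the members with the lowest p in each organ. Rrm2 (chromosome 12, 25393119 to 25399011, plus strand, mm9), the small subunit of ribonucleotide reductase that makes deoxynucleotides in S phase, had 2.53, 4.42 and 4.94 CPM in ketogenic hearts and 9.12, 10.4 and 7.06 CPM in chow hearts. It had 4.86, 6.54 and 8.47 CPM in ketogenic kidneys against 27.4, 26.2 and 22.3 CPM in chow kidneys. It had 3.99, 4.26 and 3.77 CPM in ketogenic livers against 14.4, 22.9 and 18.2 CPM in chow livers. The diets were separate in every organ, and Rrm2 was 2.14-fold lower in heart (log2 fold change -1.09, adjusted p = 0.0312), 3.81-fold lower in kidney (-1.93, adjusted p = 0.0015) and 4.65-fold lower in liver (-2.22, adjusted p = 4.41e-05). The large subunit Rrm1 fell in kidney (-0.84, adjusted p = 0.00237) and liver (-1.09, adjusted p = 0.00361), and -0.31 in heart did not pass (adjusted p = 0.141).

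Tyms (chromosome 5, 30384740 to 30400165, minus strand, mm9), the thymidylate synthase, had 1.37, 1.47 and 1.63 CPM in ketogenic hearts and 5.68, 5.38 and 4.65 CPM in chow hearts. The hearts did not overlap and it was 3.45-fold lower (log2 fold change -1.79, SE 0.23, adjusted p = 0.00652). It had 13.5, 19.1 and 19.9 CPM in ketogenic kidneys against 24.5, 22.8 and 18.8 CPM in chow kidneys, and 8.42, 7.05 and 5.39 CPM in ketogenic livers against 8.44, 8.93 and 7.67 CPM in chow livers. The diets overlapped in both, and -0.33 and -0.32 did not pass (adjusted p = 0.235 and 0.181). Tk1 (chromosome 11, 117676833 to 117687328, minus strand, mm9), the thymidine kinase of cycling cells, had 0.737, 1.24 and 0.520 CPM in ketogenic hearts against 5.08, 5.72 and 3.47 CPM in chow hearts. It had 18.3, 19.1 and 18.5 CPM in ketogenic livers against 22.1, 27.0 and 22.3 CPM in chow livers. In both organs every ketogenic library was below every chow library, by 5.98-fold in heart (-2.58, SE 0.38, adjusted p = 0.00935) and 1.28-fold in liver (-0.35, SE 0.12, adjusted p = 0.0409). The kidneys had 4.50, 7.06 and 8.58 CPM on the ketogenic diet and 14.7, 10.6 and 9.25 CPM on chow, apart but not past the test (-0.77, adjusted p = 0.104).

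The genes that act on chromatin behind the fork fell in 1 of 4 cases in heart, 3 of 4 in kidney and 4 of 4 in liver. The shares of all genes that fell in these organs were 5.80%, 5.45% and 17.5%. Uhrf1 (chromosome 17, 56442760 to 56462909, plus strand, mm9), which recognises hemimethylated DNA and recruits Dnmt1, had 2.05, 2.12 and 1.69 CPM in ketogenic hearts and 10.4, 11.3 and 4.37 CPM in chow hearts. It had 1.56, 3.60 and 3.25 CPM in ketogenic kidneys against 11.9, 14.3 and 9.68 CPM in chow kidneys. It had 1.15, 0.526 and 0.593 CPM in ketogenic livers against 5.71, 13.9 and 4.15 CPM in chow livers. Chow heart replicate 3 and chow liver replicate 2 stood off from their groups, but no ketogenic library reached a chow one. The fall was 4.51-fold in heart (adjusted p = 0.0373), 4.26-fold in kidney (adjusted p = 0.00474) and 10.5-fold in liver (log2 fold change -3.40, SE 0.79, adjusted p = 0.0334).

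Dnmt1, the maintenance DNA methyltransferase and the member of this role with the highest mean TPM, had 34.5, 34.2 and 28.5 CPM in ketogenic hearts and 38.8, 41.5 and 33.6 CPM in chow hearts. It had 30.8, 39.8 and 38.2 CPM in ketogenic kidneys against 49.6, 46.7 and 41.5 CPM in chow kidneys, and 14.3, 14.2 and 14.4 CPM in ketogenic livers against 26.2, 33.9 and 23.1 CPM in chow livers. It fell in liver, where the diets were far apart (log2 fold change -0.95, adjusted p = 0.00122), while -0.26 in heart and -0.34 in kidney did not pass (adjusted p = 0.201 and 0.0914). The subunits of chromatin assembly factor 1, which sets histones on new DNA, fell in kidney and liver. Chaf1a was 2.24-fold lower in kidney (adjusted p = 0.0056) and 4.40-fold lower in liver (adjusted p = 0.00328), and Chaf1b 2.72-fold lower in kidney (adjusted p = 0.0181) and 2.86-fold lower in liver (adjusted p = 0.00253). Neither passed in heart (log2 fold changes -0.66 and -1.82, adjusted p = 0.124 and 0.06).

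E2f1, a transcription factor that drives many S phase genes, had 1.53, 1.30 and 1.43 CPM in ketogenic hearts and 3.82, 5.33 and 2.21 CPM in chow hearts. It had 2.34, 3.66 and 4.96 CPM in ketogenic kidneys against 8.07, 6.87 and 5.25 CPM in chow kidneys, and 2.39, 2.11 and 2.53 CPM in ketogenic livers against 6.03, 8.39 and 3.79 CPM in chow livers. No organ's diets overlapped, but only the liver value passed (log2 fold change -1.35, adjusted p = 0.0106), with -1.40 in heart and -0.87 in kidney (adjusted p = 0.0644 and 0.0862).

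Whether the diet effect itself differed between organs was tested in 1 model of all organs over 15696 genes. Between heart and kidney it differed for 1 of 37 members, against 2.47% of all genes. Between heart and liver it differed for 16 members, or 43.2%, against 23.5% of all genes, and between kidney and liver for 8, or 21.6%, against 21.8% of all genes. The shares for heart and kidney (2.7%) and for kidney and liver lay near those of all genes, so these counts are no result about the members. The difference between heart and kidney was in Tyms, lower in heart by 1.45 (difference of log2 fold changes -1.45, SE 0.30, adjusted p = 0.0186). Same-numbered chow hearts and kidneys deviated together (r of 0.195, 0.15 and 0.11 over 7774 genes), while ketogenic ones did not (-0.087, -0.019 and -0.183). Ketogenic kidneys and livers also deviated together (0.095, 0.046 and 0.257), while chow ones did not in every pair (0.058, -0.103 and 0.189). The contrasts of heart with kidney and of kidney with liver take no account of this. With all 18 libraries separate the count for heart and kidney was 3, with and without a block for each diet and replicate number. It ran from 0 to 2 as single libraries were left out, the count for heart and liver from 12 to 16, and the count for kidney and liver from 4 to 12.

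Of the 16 members that differed between heart and liver, 11 had the lower value in liver and 5 the lower value in heart. Mcm2 differed by 1.93 (SE 0.43, adjusted p = 0.00547), Pole by 1.74 (adjusted p = 0.00586), Mcm6 by 1.72 (adjusted p = 0.00283) and Pold1 by 1.27 (adjusted p = 0.00235), each lower in liver. In the other direction were Mcm10 with -3.06 (SE 0.56, adjusted p = 0.00165), Tk1 with -2.13 (adjusted p = 0.00314) and Tyms with -1.43 (adjusted p = 0.00416). The thymidine enzymes Tk1 and Tyms had the lower value in heart, and the ribonucleotide reductase subunits Rrm1 and Rrm2 had it in liver (0.83 and 1.15). Between kidney and liver, Mcm6 differed by 2.00 (adjusted p = 0.000779) and Lig1 by 1.12 (adjusted p = 0.0358), lower in liver, and Mcm10 by -1.43 (adjusted p = 0.0111), Rfc3 by -1.0 (adjusted p = 0.00706) and Gins4 by -0.66 (adjusted p = 0.02), higher in liver.

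**Figure D4:**
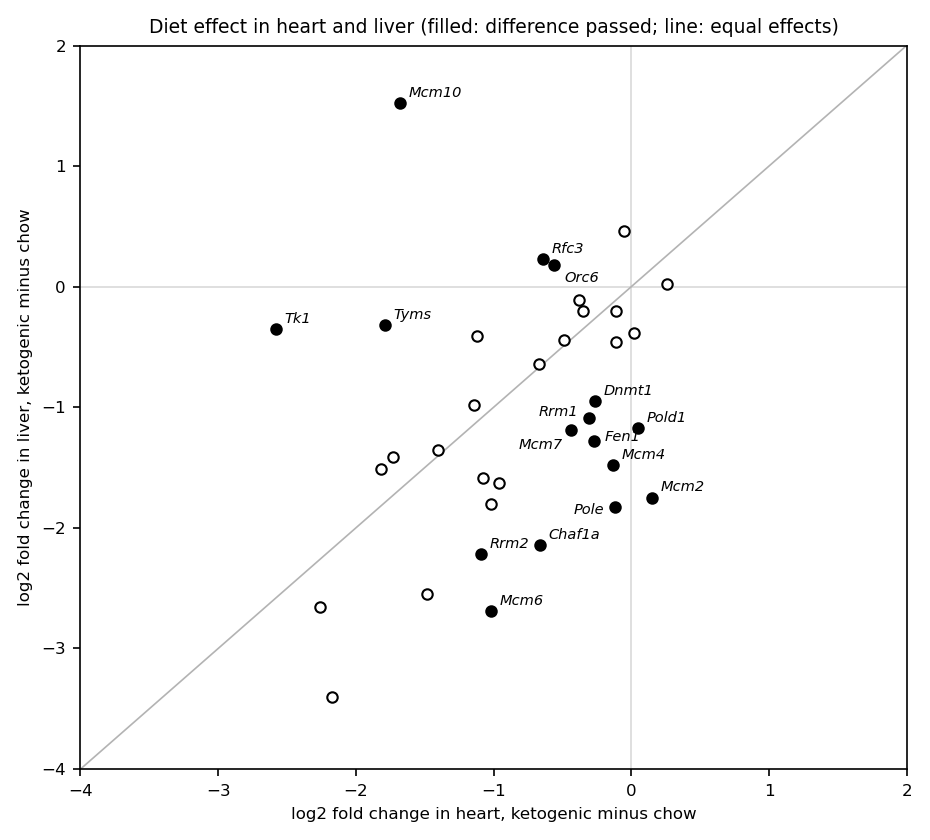
Log2 fold change (ketogenic minus chow) of 36 replication genes in heart (x axis) and liver (y axis), with filled, named points where the difference between the organs passed (16 members) and a line of equal effects. Points below the line, such as Mcm6 and Pole, were lower in liver, and Mcm10, Tk1 and Tyms lie above it.

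On chow, levels per length were highest in kidney for 27 of 37 members, in heart for 6 and in liver for 4. Without overlap of the chow libraries of the top 2 organs this held for 10, 3 and 3 members. Those with no overlap included Rfc5, at 19.01 ± 1.04 TPM in kidney, 12.1 ± 1.1 TPM in liver and 6.79 ± 1.25 TPM in heart (SD, n = 3 each). They also included Tk1, at 36.4 ± 4.5 TPM in liver, 16.7 ± 3.7 TPM in kidney and 7.76 ± 1.82 TPM in heart. Pcna had 83.6 ± 2.4 TPM in kidney, 72.5 ± 8.3 TPM in heart and 52.5 ± 11.2 TPM in liver. Organs were not tested against each other on 1 diet. The order of organs was not counted over all genes, so these counts only describe the members.

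Another list held 57 further replication genes, of which 55 were in the files. In heart 8 of 54 tested fell and 3 rose, in kidney 17 of 54 fell and none rose, and in liver 14 of 53 fell and 8 rose. The shares that fell were 14.8%, 31.5% and 26.4%, against 5.80%, 5.45% and 17.5% of all genes. The shares that rose in heart and liver, 5.56% and 15.1%, were below the 6.25% and 19.2% of all genes. Their median log2 fold change was -0.22, -0.32 and -0.15, nearer to zero than that of the 37 members in each organ. The 4 with the smallest p in each organ were as follows. In heart, E2f2, a second E2F factor, had 0.948, 1.18 and 1.496 CPM on the ketogenic diet against 3.93, 4.65 and 4.74 CPM on chow, and fell (-1.83, adjusted p = 0.0101). The gene listed as 5730590G19Rik also fell there (-3.21, adjusted p = 0.0195). Rrm2b, the p53-inducible reductase subunit, had 40.1, 45.0 and 47.0 CPM in ketogenic hearts against 30.9, 31.0 and 32.5 CPM in chow hearts, and rose (0.51, adjusted p = 0.0134), as did Rfc1, the large loader subunit (0.40, adjusted p = 0.018). The hearts did not overlap for any of these 4 genes.

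In kidney, Asf1b, a histone chaperone, had 0.781, 0.654 and 0.533 CPM on the ketogenic diet against 2.37, 2.99 and 2.43 CPM on chow (-1.98, adjusted p = 0.00474). Ccne2, a cyclin of S phase entry, had 1.62, 1.83 and 2.02 CPM against 4.91, 4.26 and 4.87 CPM (-1.35, adjusted p = 0.00553). Clspn, the checkpoint mediator claspin, fell there (-3.12, adjusted p = 0.00604), and so did 5730590G19Rik (-2.47, adjusted p = 0.00665). In liver, Chtf18, of an alternative clamp loader, had 0.0997, 0.210 and 0.377 CPM on the ketogenic diet against 1.54, 2.60 and 1.85 CPM on chow (-3.07, adjusted p = 0.00046). Topoisomerase Top2a (-3.15, adjusted p = 0.000725) and E2f2 (-2.12, adjusted p = 0.000846) fell as well. The polymerase epsilon subunit Pole4 rose in liver, with 22.7, 19.7 and 21.9 CPM on the ketogenic diet against 12.5, 13.8 and 11.8 CPM on chow (0.76, adjusted p = 0.000473).

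Of 12 proliferation markers outside the replication lists, 8 fell in heart, 11 in kidney and 11 in liver, and none rose. The shares that fell were 66.7%, 91.7% and 91.7%, against 5.80%, 5.45% and 17.5% of all genes. Mki67, the marker of cycling cells, had 4.24, 3.68 and 3.29 CPM in ketogenic livers against 43.9, 67.6 and 42.5 CPM in chow livers (-3.80, adjusted p = 0.000156). In kidney it had 4.50, 13.3 and 18.3 CPM on the ketogenic diet and 79.3, 81.6 and 54.0 CPM on chow (-2.57, adjusted p = 0.048). In heart it had 10.6, 11.9 and 6.50 CPM on the ketogenic diet against 58.1, 63.5 and 23.3 CPM on chow, apart but not past the test (-2.40, adjusted p = 0.0907). Summed over the list, livers had 8.52 to 12.1 CPM on the ketogenic diet against 111 to 156 CPM on chow. The kidneys had 15.3 to 45.7 CPM against 132 to 191 CPM. The hearts overlapped, at 65.0 to 143 CPM on the ketogenic diet against 79.7 to 171 CPM on chow, and Cenpf stood apart from the list there. Cenpf, a kinetochore protein, had 113, 122 and 53.8 CPM in ketogenic hearts against 47.5, 47.4 and 33.5 CPM in chow hearts. Every ketogenic heart lay above every chow heart, but the log2 fold change of 1.01 did not pass (adjusted p = 0.172).

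Markers of some other cell types also moved with diet, and others did not. In heart, 6 of 7 macrophage markers tested fell, or 85.7% against 5.80% of all genes. The sum of that list was 291 to 296 CPM on the ketogenic diet against 478 to 540 CPM on chow. No macrophage marker passed in kidney (0 of 7 tested) or liver (0 of 10 tested). Of 6 endothelial markers, none passed in heart and 1 fell in kidney and 1 in liver. That is 16.7% in each, against 5.45% and 17.5% of all genes. Erythroid markers in heart summed to 1103 to 2572 CPM on the ketogenic diet against 4540 to 6517 CPM on chow, though none of 8 passed. Fibroblast markers fell for 2 of 6 in heart and 3 of 6 in kidney, with kidney sums of 321 to 413 CPM on the ketogenic diet against 710 to 1099 CPM on chow. In liver 3 of 6 hepatocyte markers fell, with 69720 to 75010 CPM on the ketogenic diet against 112200 to 121400 CPM on chow, and the 8 granulocyte markers summed to 2.80 to 7.63 CPM on the ketogenic diet against 0.497 to 1.27 CPM on chow. Of these 8, 4 could be tested, which passed the filter through the ketogenic livers. Fibroblast markers in liver fell for Col1a1 (-1.82) and Pdgfrb (-0.69) and rose for Dcn (0.36), with sums of 183 to 215 CPM on the ketogenic diet against 192 to 218 CPM on chow. That is 33.3% that fell and 16.7% that rose, against 17.5% and 19.2% of all genes. Lymphocyte markers in liver rose for Cd3d (2.13) and Ptprc (0.80), 2 of 8 tested, where 19.2% of all genes rose. None of the 8 fell past the test, though Cd3e (-0.36) and Cd79a (-0.35) were below zero. Cd3d passed the filter through the ketogenic livers, with 0.485 to 1.10 CPM against 0.0903 to 0.227 CPM on chow. The sums of the list were 18.8 to 33.6 CPM on the ketogenic diet against 14.6 to 18.4 CPM on chow. Adipocyte markers in liver summed to 754 to 856 CPM on the ketogenic diet against 645 to 786 CPM on chow. Most of that was Adipor2, at 711, 708 and 668 CPM against 785, 644 and 737 CPM, which did not pass (-0.06, adjusted p = 0.693). Of these 6 markers 3 could be tested and 2 rose, or 66.7% against 19.2% of all genes. Cfd had 113, 116 and 56.3 CPM on the ketogenic diet against 0.0454, 0.0839 and 0.0451 CPM on chow. It passed the filter through the ketogenic livers. Cidec had 25.7, 31.0 and 29.4 CPM against 0.680, 0.419 and 0.677 CPM. No macrophage, fibroblast or erythroid marker was at 0 in all 6 libraries of an organ, while the granulocyte marker Ctsg was at 0 in all 6 livers. The part of these cells in the results for the replication genes was not tested.

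The genes outside the replication lists whose pattern was most like the mean of the members, over 18 libraries after each organ's mean was removed, were Ncapg2, Tubb5, Atad2, Stmn1 and Col15a1. Their Pearson r was 0.975, 0.972, 0.969, 0.967 and 0.965 among 14255 genes, as a description over libraries that share diet groups.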

How the data were processed

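Stranded messenger RNA libraries were sequenced, and RNA integrity numbers were over 4, per the labels' protocols. Tools named in the submitters' processing notes are HISAT2 2.1.0 and featureCounts 1.5.0, besides bcl2fastq and SAMtools, with the mouse build mm9. Per the file headers, read pairs were counted over exons per gene with strand setting 2 and a minimum mapping quality of 2. Reads that matched several places were counted as fractions, so the deposited values are estimated counts, which were rounded here. Exons of Gins2, Tk1, Rfc4 and Lig1 share 88 to 160 bases with a gene on the opposite strand. Strand-specific counting is meant to keep these apart, and reads leaking from the other strand were not measured.

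The 37 members and all gene lists were chosen with earlier results of these data known. Each organ was tested by itself with edgeR 4.0.16 in R 4.3.3 (filterByExpr, TMM scaling, robust quasi-likelihood test, Benjamini-Hochberg adjustment over all genes tested, threshold 0.05). In heart and in liver, ketogenic libraries 1 and 2 were summed into 1 library each, because their median chi-square was under 0.8. Differences between organs were contrasts in 1 edgeR model of 16 libraries. CPM used TMM effective library sizes, and TPM the exon length in the files. Totals ran from 16135276 to 23835383 counts per library, and no counting interval is printed. P-values measure the spread between these libraries, since separate mice are not named beyond the term biological replicate. Values in every library were given for the 4 members with the smallest p per organ, the member of each role with the highest mean TPM, members with a positive log2 fold change in any organ and at most 6 members per pair of organs whose effects differed. They were given for the organs that named them or beyond. Cdc6 and Uhrf1, and Mki67 among the markers, were added after their values were seen. Promoters came from RefSeq on GRCm38.p6 and were matched by symbol, with 250 bases before and 50 bases after the start. Their coordinates are not on the build of the counts.

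Alternatives were DESeq2 1.42.0, limma-voom (limma 3.58.1), RLE and total count scaling, no filter, a filter of 1 CPM in 2 libraries, all organs in 1 model, all libraries kept separate, the replicate number as a block, and each library left out. For the contrasts of organs the block was the diet with the replicate number, shared by the organs. The steps were tested on simulated data with the same dispersion for every gene and changes placed only in better expressed genes. That test did not cover rare members such as Cdc6 and Orc1, or the uneven chow libraries. Same-numbered ketogenic and chow libraries did not deviate together in all 3 pairs of any organ, and the diets were compared without pairing. Deviations within groups of 3 libraries cannot show whether the replicate numbers pair the diets. Same-numbered chow hearts and kidneys did deviate together and ketogenic ones did not. Ketogenic kidneys and livers also deviated together, and chow ones did not in every pair. The main contrasts of organs were fitted without a block.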

Additional observations from a re-analysis of the deposited data

Results flagged for a closer look

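The diet effect differed between organs for 25 combinations of a member and a pair of organs, by the contrast of log2 fold changes with an adjusted p under 0.05. These were 1, 16 and 8 of 37 members (2.7%, 43.2% and 21.6%) for heart and kidney, heart and liver, and kidney and liver, against 2.47%, 23.5% and 21.8% of all genes tested. The first and the last share are near those of all genes. Between heart and kidney this was Tyms (-1.45), lower in heart. Between heart and liver, values of heart minus liver were positive, so lower in liver, for Mcm2 (1.93), Mcm4 (1.39), Mcm6 (1.72), Mcm7 (0.79), Rrm1 (0.83), Rrm2 (1.15), Pold1 (1.27), Pole (1.74), Fen1 (1.05), Dnmt1 (0.73) and Chaf1a (1.52). They were negative, so lower in heart, for Mcm10 (-3.06), Tyms (-1.43), Tk1 (-2.13), Rfc3 (-0.82) and Orc6 (-0.70).

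Between kidney and liver, the values of kidney minus liver were 2.00 for Mcm6, 0.86 for Pold1, 0.78 for Fen1, 1.12 for Lig1 and 0.64 for Dnmt1. They were -1.43 for Mcm10, -0.66 for Gins4 and -1.0 for Rfc3. With each single library left out in turn, 10 of the 16 members for heart and liver and 3 of the 8 for kidney and liver (Mcm6, Mcm10 and Rfc3) passed every time, and Tyms for heart and kidney did not.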

How the results depend on the processing

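For counts of members that fell, the 9 in heart became 4 with limma-voom, 14 with total count scaling, 14 with all organs in 1 model and 16 with all 6 libraries separate, and ran from 0 to 24 without single libraries. Over all genes, 789 fell in heart in the main fit. This became 635 with limma-voom, 1434 with total count scaling, 1050 with all organs in 1 model and 1643 with all 6 libraries separate. In kidney, 791 of all genes fell in the main fit and 685 with all organs in 1 model. The 22 members that fell in kidney became 13 with all organs in 1 model and ran from 12 to 23 without single libraries. The 19 in liver ran from 12 to 23, and the 2 that rose from 1 to 2. The 1 difference between heart and kidney became 4 with DESeq2, 2 with total count scaling and 3 with all 18 libraries separate, and ran from 0 to 2. The 8 between kidney and liver became 5 with total count scaling and ran from 4 to 12. Members called without each library in turn numbered 0 of 9 (heart), 12 of 22 (kidney) and 13 of 21 (liver).

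With the replicate number as a block and all libraries separate, 16 members fell in heart and 14 in kidney, and 3 differed between heart and kidney (3 also without the block). With no filter, 20 members fell in liver, and 22 with all organs in 1 model, Orc1 among them in both. Over all genes, 2366 and 2458 fell in liver under these settings, against 2323 in the main fit. Whether the replicate numbers pair the diets cannot be told from deviations within groups of 3 libraries. Deviations of same-numbered libraries correlated from -0.167 to 0.042 in heart, -0.244 to 0.078 in kidney and -0.011 to 0.115 in liver.

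Total count scaling moved the median of all genes in heart to -0.17 and gave 1434 genes that fell and 464 that rose there, against 789 and 850 with TMM; in kidney it gave 1137 and 385, against 791 and 520.

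Signs turned only for members that had not passed. Under total count scaling these were Pold1 in heart (-0.08), Rpa2 in heart (-0.12) and Mcm10 in kidney (-0.04). Without single libraries the ranges that crossed zero were -0.16 to 0.02 for Gins4, -0.34 to 0.09 for Pole and -0.03 to 0.14 for Rpa2 in heart. They were -0.19 to 0.26 for Mcm10 and -0.29 to 0.14 for Gins1 in kidney, and -0.13 to 0.23 for Gins1, -0.20 to 0.08 for Pcna and -0.32 to 0.06 for Pola1 in liver. The cause of these changes was not tested. Members with few counts, such as Cdc6, Orc1 and Chaf1b, limit what the depth can show.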

Other observations

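A list of 15 repressors of replication genes and genes of the p53 response had 1 of 14 tested that fell and 1 that rose in heart, 2 of 14 that fell in kidney, and 4 of 13 that fell and 1 that rose in liver. Over all genes tested, 5.80% fell and 6.25% rose in heart, 5.45% fell in kidney, and 17.5% fell and 19.2% rose in liver. Cdkn1a, the cyclin-dependent kinase inhibitor p21, fell in each organ. It had 9.59, 10.6 and 16.7 CPM in ketogenic hearts against 31.9, 36.3 and 26.0 CPM in chow hearts (log2 fold change -1.25, adjusted p = 0.0354 by edgeR). It had 3.60, 3.33 and 5.59 CPM in ketogenic kidneys against 9.32, 10.5 and 7.52 CPM in chow kidneys (-1.11, adjusted p = 0.0187). It had 1.55, 2.42 and 0.917 CPM in ketogenic livers against 9.66, 12.2 and 6.32 CPM in chow livers (-2.59, adjusted p = 0.00242). No ketogenic library reached the chow range of its organ.

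Rbl1, the pocket protein p107 that binds E2F factors, fell in kidney (-0.59, adjusted p = 0.00934) and liver (-1.34, adjusted p = 0.00227), and Rbl2, its relative p130, rose in heart (0.47, adjusted p = 0.0161). In liver Cdkn2c (-0.98, adjusted p = 0.00191) and Trp53 (-0.83, adjusted p = 0.0464) fell and Mdm2 rose (0.41, adjusted p = 0.018). Summed over the list, kidneys had 419 to 432 CPM on the ketogenic diet and 426 to 439 CPM on chow, which overlapped.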
